A study of Mus musculus with 3 samples.

Results

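The endothelin genes described here are the ligand genes *Edn1*, *Edn2* and *Edn3*, the receptor genes *Ednra* and *Ednrb* and the converting enzyme genes *Ece1* and *Ece2*. They were chosen by gene symbol, and each of the 7 has its own row among the 24346 genes of the deposited table. Expression was measured by bulk RNA-seq in adult lung endothelial cells (ECs), in 3 libraries named S38, S44 and S52 that all belong to a single group. The cells came from wild type male C57BL/6J mice aged 6 to 8 weeks, which had received an anti-VE-cadherin antibody into the circulation before the organs were taken. The lungs were digested enzymatically, and cells were sorted by flow cytometry with antibodies to CD31, CD45 and podoplanin and used without culture. No treated or mutant group is part of these data, so the comparisons are between genes within a library and between libraries. Nothing in the labels says whether the libraries came from separate mice, and the spread between them may therefore be technical.

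Endothelins are small peptides that act on blood vessels. Each is cut from a larger precursor, first by furin-type proteases and then by an endothelin-converting enzyme, a metalloprotease that releases the active peptide. Endothelin-1, the product of *Edn1*, is released by ECs and contracts smooth muscle through the A-type receptor encoded by *Ednra*. The B-type receptor encoded by *Ednrb* is known on ECs, where it is linked to the release of nitric oxide and prostacyclin, and in the lung it clears endothelin-1 from blood. In mouse lung *Ednrb* is also a known marker of aerocytes, the thin *Car4*-positive capillary ECs of the gas exchange surface.

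The 3 ligand genes differ in the short coding stretch that gives rise to the active peptide, and the stretch is shown because the levels given further on differ so widely between these 3 genes. In each gene it covers 21 codons, or 63 bases, and lies in exon 2. The bases below come from the GENCODE M21 transcripts, 5′ to 3′, and capitals mark bases of *Edn2* and *Edn3* that differ from *Edn1* at the same place.
*Edn1*: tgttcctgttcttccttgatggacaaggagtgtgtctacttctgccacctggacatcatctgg
*Edn2*: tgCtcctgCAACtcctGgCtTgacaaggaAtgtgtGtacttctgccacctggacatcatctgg
*Edn3*: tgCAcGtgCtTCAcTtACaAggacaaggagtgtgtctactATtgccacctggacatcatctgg
On GRCm38, the build also called mm10, the stretch of *Edn1* is chr13:42303649-42303711, that of *Edn2* is chr4:120161951-120162013 and that of *Edn3* is chr2:174761749-174761811, all on the plus strand. *Edn2* differed from *Edn1* at 10 bases and in 3 encoded residues, and the residues that differ lie within the first 7 codons. *Edn3* differed from *Edn1* at 13 bases and in 6 encoded residues, up to codon 14. No stretch of 51 bases, the read length, was shared between the transcripts of any of the 7 genes, so a read that matched exactly could not come from more than 1 of them.

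Levels are given as FPKM, which divides the fragments of a gene by its length and by the library's size and so allows genes to be compared within a library. The columns summed to between 1153890 and 1603596 FPKM. Short noncoding genes made up 59.6% of the sum in S38, 70.2% in S44 and 66.8% in S52. From the steps between low values, the depth was estimated at 38000000, 38900000 and 34200000 fragments in S38, S44 and S52. S52 stood apart from the other libraries in genes of platelets, alveolar type 2 cells, airway cells and leukocytes. With libraries in the order S38, S44 and S52, 4 platelet genes summed to 1692, 1345 and 38 FPKM, 6 alveolar type 2 genes to 3797, 3184 and 767 FPKM, 5 airway genes to 2779, 2316 and 407 FPKM and 6 leukocyte genes to 1091, 835 and 186 FPKM. The platelet gene *Ppbp*, at 1054, 778 and 16 FPKM, made up most of the platelet sum in S38 and S44. A single gene made up most of each of the other 3 sums in every library. *Sftpc* was at 3333, 2862 and 658 FPKM, *Scgb1a1* at 2669, 2212 and 378 FPKM and *Lyz2* at 1047, 780 and 166 FPKM. *Ptprc*, also on the leukocyte list, was at only 4.3, 2.06 and 0.434 FPKM, and *Cd68* at 17, 27.4 and 16.7 FPKM. Fibroblast genes summed to between 50.2 and 85.1 FPKM per library, alveolar type 1 genes to between 273 and 373, lymphatic endothelial genes to between 414 and 634, venous genes to between 314 and 397, and mesothelial, mast cell and neuroendocrine genes to at most 6.14. Most of the lymphatic endothelial sums was *Lyve1* (539, 597 and 390 FPKM), while *Prox1* was at most 0.598 FPKM. Most of the venous sums was *Vwf* (298, 314 and 235 FPKM), while *Nr2f2* was at most 3.04 FPKM. Most of the alveolar type 1 sums was *Hopx* (294, 332 and 201 FPKM). All 9 endothelial genes, which include *Pecam1* and *Cdh5*, were above 1 FPKM in every library and summed to 5994, 6632 and 5880 FPKM. Since these are bulk samples, fewer cells of a type and less RNA per cell cannot be told apart.

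Of the 7 endothelin genes, 5 reached 1 FPKM in every library, against 43.9% of all genes in the table. Those were *Ece1*, *Ednrb*, *Edn1*, *Ece2* and *Ednra*. *Edn3* was below 1 FPKM in all 3 libraries as deposited, though not when they were rescaled without short noncoding genes, and *Edn2* was listed at 0 in all 3, as were 29.5% of all genes.

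**Figure D1:**
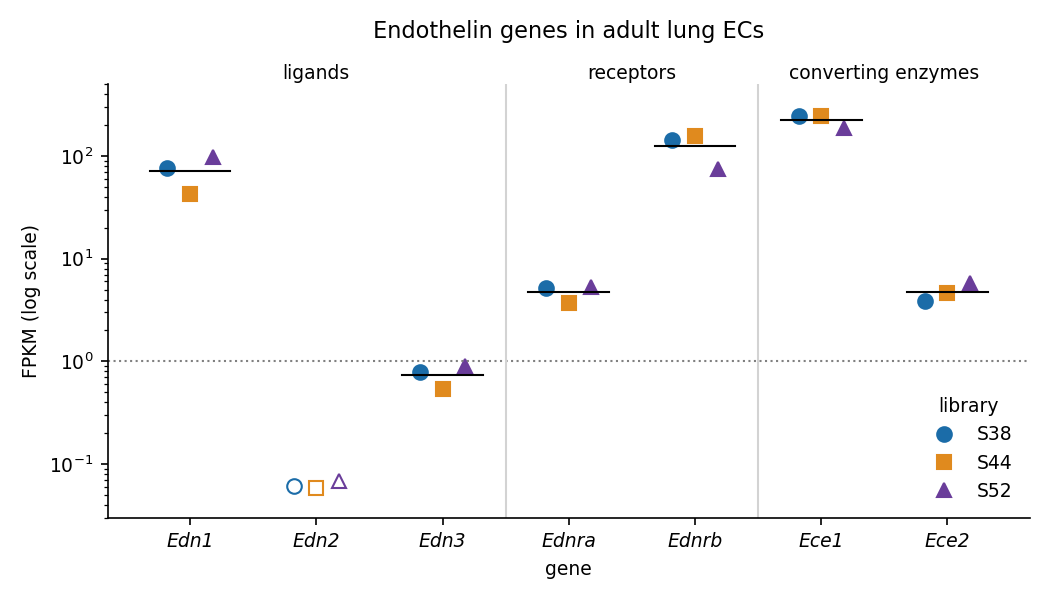
FPKM of the 7 endothelin genes in adult lung ECs on a log axis, with 1 marker per library, a line at the mean of the 3 libraries and a dotted line at 1 FPKM. *Edn2* is listed at 0 and drawn with open markers at the FPKM that 3 fragments would give, while *Edn1*, *Ednrb* and *Ece1* lie between 42.4 and 246 FPKM.

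Among the ligands, *Edn1* was the abundant transcript. *Edn1* (chromosome 13, 42301476 to 42307990, plus strand, 5 exons) had levels of 75.6 (S38), 42.4 (S44) and 96.7 FPKM (S52), with a mean of 71.6 ± 27.4 FPKM (SD, n = 3 libraries). It was highest in S52 and lowest in S44, a ratio of 2.28, and its mean lay above that of 95.0% of all genes. These levels stand for an estimated 3263 to 6511 fragments per library, so counting error was small beside the spread between libraries. *Edn3* (chromosome 2, 174760619 to 174784042, plus strand, 5 exons), which is known for its role in the neural crest, had levels of 0.793 (S38), 0.544 (S44) and 0.896 FPKM (S52), with a mean of 0.744 ± 0.181 FPKM (SD, n = 3). An estimated 62.6 to 90.3 fragments per library stood behind those values, the lowest value again in S44. *Edn2* (chromosome 4, 120161206 to 120167360, plus strand, 5 exons) was listed at 0 in each library. At the estimated depths a count of 0 allows levels of up to 0.0606, 0.0592 and 0.0679 FPKM in these libraries (3 fragments per library, counting error only). The lowest *Edn3* value, 0.544 FPKM in S44, was therefore well above the limit for *Edn2*. *Edn1* exceeded *Edn3* by a factor of 95.4 in S38, 77.9 in S44 and 108 in S52, and the 2 genes did not overlap in any library.

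Of the receptors, *Ednrb* was far above *Ednra*. *Ednrb* (chromosome 14, 103814625 to 103844402, minus strand, 8 exons in its longest transcript) had levels of 143 (S38), 155 (S44) and 75.3 FPKM (S52), with a mean of 125 ± 43.1 FPKM (SD, n = 3). S38 and S44 were close, and S52 was lower than both, with a ratio of 2.06 between the highest and lowest library. *Ednra* (chromosome 8, 77663031 to 77724464, minus strand, 8 exons) had levels of 5.13 (S38), 3.71 (S44) and 5.32 FPKM (S52), with a mean of 4.72 ± 0.877 FPKM (SD, n = 3) and the lowest value in S44. The level of *Ednrb* was 27.9 times that of *Ednra* in S38, 41.8 times in S44 and 14.2 times in S52. The difference of log2(FPKM + 1) between the receptors was 4.40 ± 0.741 (SD, n = 3), with *Ednrb* higher in 3 of 3 libraries.

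Both converting enzymes were detected, and *Ece1* was the highest of all 7 genes. *Ece1* (chromosome 4, 137862237 to 137965229, plus strand, 20 exons), which encodes the main enzyme that activates endothelin-1, had levels of 242 (S38), 246 (S44) and 188 FPKM (S52), with a mean of 225 ± 32.8 FPKM (SD, n = 3). Its mean lay above that of 98.2% of all genes, and its ratio between the highest and lowest library was 1.31. *Ece2* (chromosome 16, 20629828 to 20646485, plus strand, 19 exons in its longest transcript), a relative of *Ece1* known from neural tissue, had levels of 3.91 (S38), 4.65 (S44) and 5.73 FPKM (S52), with a mean of 4.76 ± 0.914 FPKM (SD, n = 3). The *Ece2* value is uncertain as to its source, because 57.5% of its exonic bases also belong to *Gm49333*, a gene for transcripts that read through from the gene before it. Reads of 51 bases from this shared part fit both genes, and *Gm49333* has no row of its own in the table. *Ece1* exceeded *Ece2* by a factor of 61.9 in S38, 53.0 in S44 and 32.8 in S52, and the difference of log2(FPKM + 1) was 5.30 ± 0.432 (SD, n = 3), in the same direction in 3 of 3 libraries.

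By mean FPKM the order of the endothelin genes was *Ece1*, *Ednrb*, *Edn1*, *Ece2*, *Ednra*, *Edn3* and *Edn2*, and each neighbouring pair was compared within libraries. *Ece1* was above *Ednrb* in 3 of 3 libraries, by 0.91 ± 0.347 on the log2(FPKM + 1) scale (SD, n = 3). *Ednrb* and *Edn1* could not be ordered. *Ednrb* was 1.89 times *Edn1* in S38 and 3.67 times in S44, but 0.779 times in S52, so the difference of 0.80 ± 1.11 (SD, n = 3) was smaller than its spread. Below them came a wide gap, since *Edn1* exceeded *Ece2* by 3.59 ± 0.564 on the same scale (SD, n = 3). *Ece2* and *Ednra* also could not be ordered, with a difference of 0.01 ± 0.299 (SD, n = 3) and ranges that overlap. *Ednra* exceeded *Edn3* by 1.71 ± 0.0858 (SD, n = 3), the steadiest difference in the series of neighbours. No difference is given against *Edn2*, which was listed at 0.

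The design cannot bring any of these differences past a threshold of 0.05. A two-sided exact sign flip permutation test over 3 libraries gives no p below 0.25. That smallest value was reached for *Ednrb* against *Ednra*, *Ece1* against *Ece2* and *Edn1* against *Edn3*, with an adjusted p of 0.25 (exact permutation test). The adjustment was over the 4 pairs compared within ligands, receptors and enzymes. For the 6 neighbouring pairs the same exact permutation test gave an adjusted p of 0.375 for the pairs with 3 of 3 libraries in a single direction, 0.60 for *Ednrb* and *Edn1* and 1.0 for *Ece2* and *Ednra*. These 6 pairs were formed from the order of the same mean levels that they compare.

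**Figure D2:**
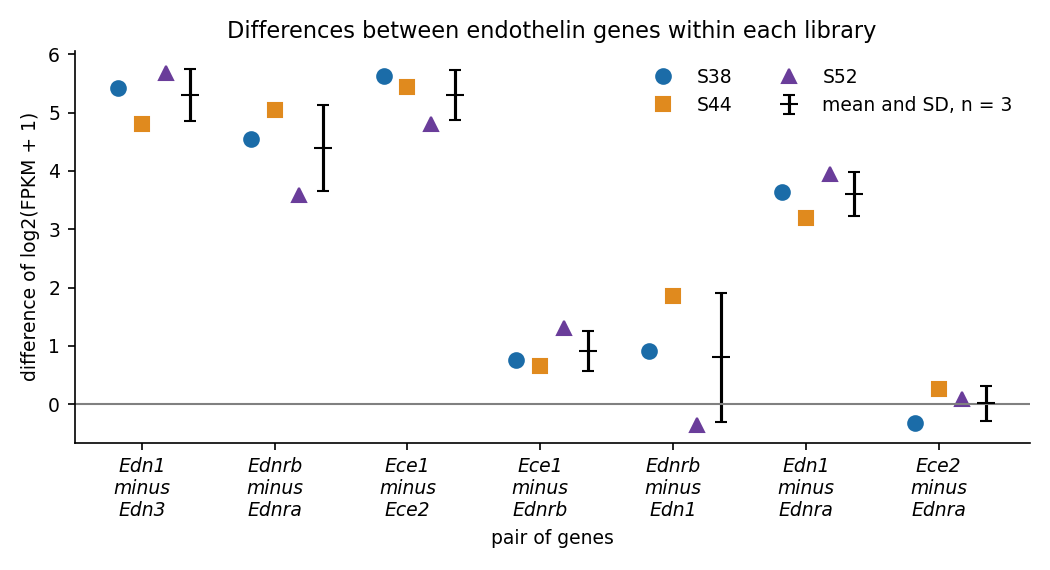
Difference of log2(FPKM + 1) between pairs of endothelin genes, with 1 marker per library and the mean with its SD (n = 3) beside them. The differences of *Edn1* from *Edn3*, *Ednrb* from *Ednra* and *Ece1* from *Ece2* are above 3 in every library, while *Ednrb* against *Edn1* and *Ece2* against *Ednra* fall on both sides of 0.

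The endothelin genes did not move together from library to library. Among the 5 with a mean of at least 1 FPKM, *Edn1* and *Ednrb* varied more than 2-fold across the libraries, as did 20.1% of all genes at that level. *Ednrb* and *Ece1* were lowest in S52, where 46.3% of all genes at that level were lowest. *Edn1* and *Ednra* were lowest in S44, where 28.2% of all genes were, and both followed the order S52, S38, S44 from high to low, an order seen in 17.8% of all genes, although *Ednra* was highest in S38 when libraries were rescaled to equal sums or to the endothelial genes. The ratio of *Edn1* to *Ednrb* came to 0.529 (S38), 0.273 (S44) and 1.28 (S52), so among these libraries the ligand transcript exceeded the receptor transcript only in S52.

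The lower *Ednrb* value of S52 came with lower values of other aerocyte genes. On the log2(FPKM + 1) scale *Ednrb* differed by -0.91 between S52 and S38 and by -1.03 between S52 and S44, where the medians over all genes at 1 FPKM or above were -0.08 and -0.06. Without S52, its ratio between the highest and lowest library was 1.09. All 7 aerocyte markers (*Car4*, *Apln*, *Tbx2*, *Fibin*, *Emp2*, *Prx* and *Chst1*) were lowest in S52 (6 of 7 when libraries were rescaled to equal sums), and their median difference was -0.72 against each of the other libraries. Of all genes averaging 1 FPKM or more, 46.3% were lowest in S52 as deposited. The marker list was chosen with earlier results of these data known, so it is not independent of them. The 7 aerocyte markers summed to 2000 (S38), 2080 (S44) and 1434 FPKM (S52), and none was at 0. *Car4*, the carbonic anhydrase gene that defines these cells, was at 855, 959 and 582 FPKM. The 4 general capillary markers summed to 1599 (S38), 1792 (S44) and 2044 FPKM (S52). Of these markers (*Gpihbp1*, *Aplnr*, *Plvap* and *Kit*), only *Kit* was lowest in S52, and their median differences were 0.37 and 0.05. Of 6 arterial markers only *Efnb2* was lowest in S52. Of the 9 endothelial genes 3 were lowest in S52, and the median differences of the 9 from S38 and S44 were 0.05 and -0.06. Among those 3, *Kdr* differed by -0.68 and -0.60 and *Cldn5* by -0.53 and -0.75, so falls of this size were not limited to aerocyte genes. The part of aerocytes in the *Ednrb* values was not tested, and the genes of platelets and alveolar type 2 cells were lowest in S52 as well.

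*Ednra*, which is known from smooth muscle and pericytes, was compared with mural genes. *Ednra* was lower in S44 than in S38 by 0.38 and than in S52 by 0.42 on the log2(FPKM + 1) scale. All 10 mural markers (*Pdgfrb*, *Cspg4*, *Acta2*, *Tagln*, *Myh11*, *Rgs5*, *Notch3*, *Kcnj8*, *Cnn1* and *Des*) were also lowest in S44, with a median difference of 0.67 between S38 and S44 and of 0.75 between S52 and S44. Of all genes averaging 1 FPKM or more, 28.2% were lowest in S44 as deposited and 55.5% after rescaling to equal sums. The mural list was also chosen with earlier results of these data known. The 10 mural markers summed to 242 (S38), 145 (S44) and 228 FPKM (S52), and none was at 0 in any library. *Pdgfrb*, the pericyte receptor gene, was at 6.47, 4.8 and 10.1 FPKM in these libraries, against 5.13, 3.71 and 5.32 FPKM for *Ednra*. The part of mural RNA in the *Ednra* values was not tested. *Edn1* had the same lowest library with larger differences, 0.82 between S38 and S44 and 1.17 between S52 and S44. Without S44 the ratio between the highest and lowest library was 1.04 for *Ednra* and 1.28 for *Edn1*.

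*Edn1* was also set beside arterial and dissociation stress genes. The 6 arterial markers summed to 367 (S38), 404 (S44) and 449 FPKM (S52), and 3 of them (*Sox17*, *Hey1* and *Dll4*) had the order S52, S38, S44 that *Edn1* had. Of 9 genes that respond to dissociation, *Fos* and *Fosb* had it. Among all genes averaging 1 FPKM or more, 17.8% had this order. The 9 stress genes summed to 3325 (S38), 4144 (S44) and 4866 FPKM (S52). A response of *Edn1* to the procedure was not tested, since all libraries were dissociated.

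**Figure D3:**
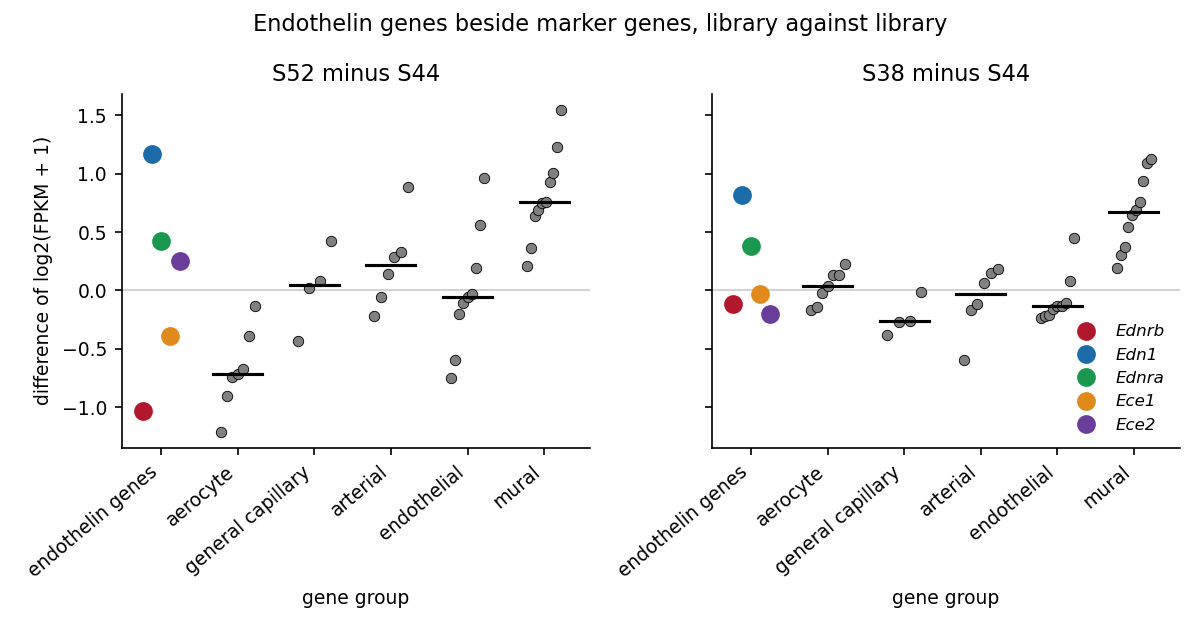
Differences of log2(FPKM + 1) between S52 and S44 (left) and between S38 and S44 (right) for 5 endothelin genes in colour and for marker genes in grey, with a line at the median of each marker list. *Ednrb* is at -1.03 beside an aerocyte median of -0.72 on the left, and *Ednra* and *Edn1* lie above 0 on both sides, as do all 10 mural genes.

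The genes that act before and after the endothelin genes were read from lists of 40 genes, all found in the table, *Grk2* under the older symbol *Adrbk1*. Of 9 genes for precursor cutting and peptide breakdown, 4 were at 1 FPKM or above in every library, as were 43.9% of all genes. *Furin*, which encodes the protease that cuts the endothelin precursors, was at 23.6 ± 3.20 FPKM (SD, n = 3), and the related proteases *Pcsk7* and *Pcsk5* were at 15.4 ± 0.858 and 11.1 ± 4.60 FPKM (SD, n = 3 for each). *Mme*, the gene for neprilysin, which degrades endothelins, was at 3.21 ± 0.799 FPKM (SD, n = 3). *Pcsk6* was at 0.427 ± 0.0299 FPKM (SD, n = 3). *Kel*, whose product can activate endothelin-3, and the endopeptidase genes *Ecel1* and *Mmel1* were listed at 0 in every library, and the chymase gene *Cma1* was at 0.143, 0.140 and 0 FPKM. *Ece1* at 225 FPKM was thus the highest of the enzymes listed here.

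All 18 receptor coupling genes were at 1 FPKM or above in every library, against 43.9% of all genes. Of the G protein genes, *Gnai2* was at 543 ± 66.3 FPKM and *Gnas* at 577 ± 47 FPKM (SD, n = 3 for each), above *Gnaq* at 38.9 ± 1.69 and *Gna11* at 52.2 ± 4.37 FPKM (SD, n = 3 for each), whose products link the endothelin receptors to phospholipase C. *Plcb3* at 42.1 ± 3.91 FPKM and *Plcb4* at 29.8 ± 4.76 FPKM (SD, n = 3 for each) were the highest of the phospholipase C beta genes. *Plcb1* differed between libraries, at 5.01 (S38), 5.67 (S44) and 18.4 FPKM (S52), the reverse of *Ednrb* in that S52 was the high library. *Arrb1*, a beta-arrestin gene, was at 66.0 ± 13.2 FPKM and *Grk2*, a receptor kinase gene, at 34.6 ± 6.52 FPKM (SD, n = 3 for each). The vasodilator enzymes known downstream of the B-type receptor in ECs were all detected. *Nos3*, the endothelial nitric oxide synthase gene, was at 19.8 ± 1.18 FPKM, *Ptgis*, the prostacyclin synthase gene, at 27.8 ± 2.89 FPKM, and *Ptgs1*, a cyclooxygenase gene, at 33.9 ± 5.39 FPKM (SD, n = 3 for each).

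**Figure D4:**
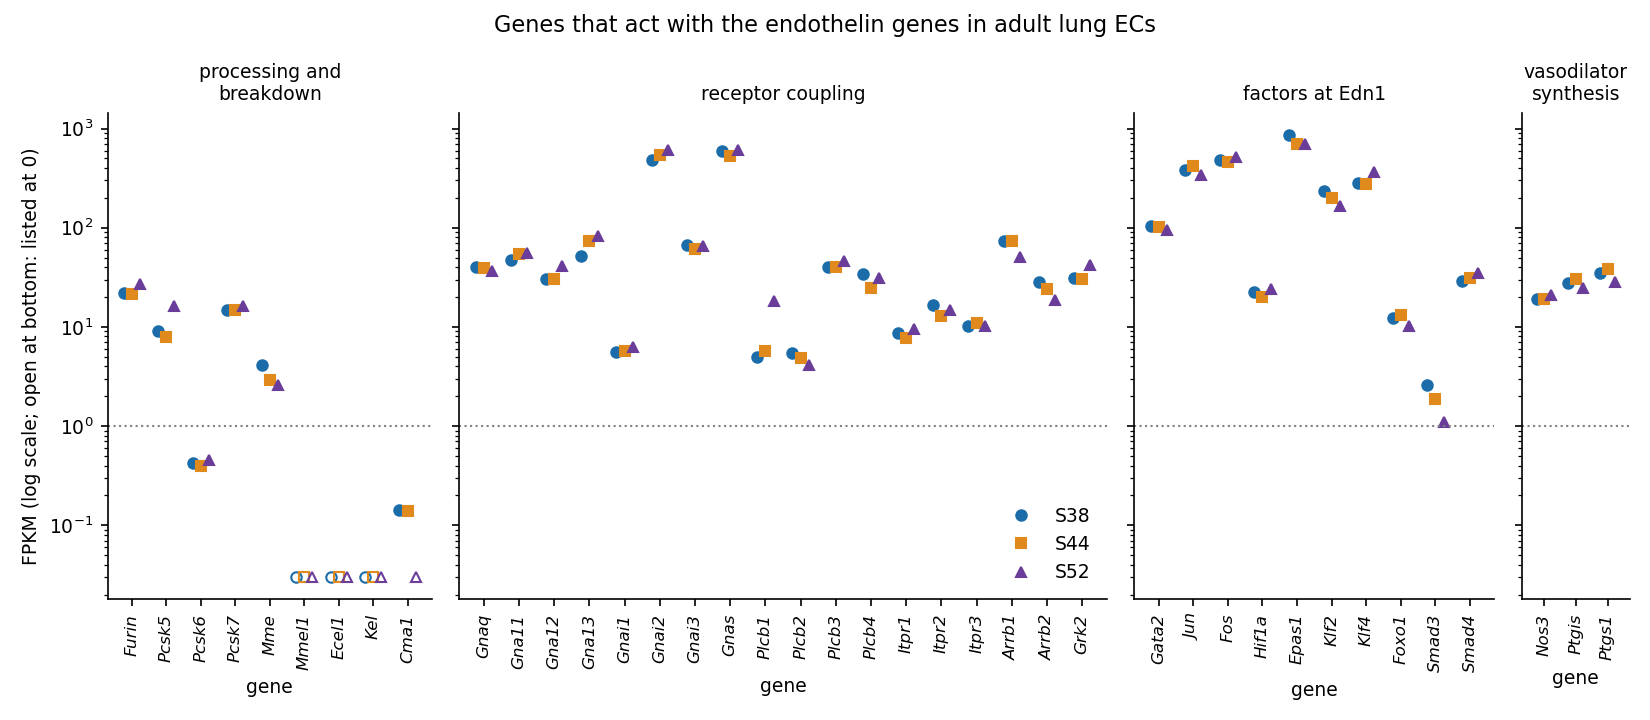
FPKM of 40 genes that act with the endothelin genes in adult lung ECs, on a log axis, with 1 marker per library and a dotted line at 1 FPKM. All 18 receptor coupling genes lie above the line, while *Mmel1*, *Ecel1* and *Kel* are listed at 0 in each library and drawn open at the bottom.

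All 10 genes for transcription factors with a known role at *Edn1* were at 1 FPKM or above in every library, against 43.9% of all genes. *Epas1*, which encodes the endothelial hypoxia-inducible factor, was the highest at 752 ± 91.9 FPKM (SD, n = 3), above *Hif1a* at 22.2 ± 2.07 FPKM (SD, n = 3). The AP-1 genes *Fos* and *Jun* were at 482 ± 30.7 and 377 ± 39.8 FPKM (SD, n = 3 for each). *Gata2*, the endothelial GATA factor gene, was at 105 (S38), 101 (S44) and 94.9 FPKM (S52). *Klf2*, a factor induced by blood flow and known to lower *Edn1*, was at 236 (S38), 198 (S44) and 164 FPKM (S52). *Smad3* was the lowest of the list, at 1.86 ± 0.752 FPKM (SD, n = 3). Of the 10 factor genes, *Fos*, *Klf4* and *Hif1a* had the order S52, S38, S44 of *Edn1*. So did 17.8% of all genes averaging 1 FPKM or more. Regulation of *Edn1* by these factors was not tested.

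The 300 bases around the start of *Edn1* were searched for motifs of GATA, AP-1 and hypoxia-inducible factors, whose transcripts are on that list. The window runs from 250 bases before to 50 bases after the annotated RefSeq start (chr13:42301226-42301525, GRCm38.p6, plus strand). It held the GATA motif AGATAA, found in 11.2% of the 32851 RefSeq windows of this length, the hypoxia response core ACGTG, found in 19.6%, and the AP-1 variant TGACTAA, found in 2.35%, on either strand. The variant was added to the search after the sequence had been read. The AP-1 consensus TGACTCA was not in the *Edn1* window and was found in 5.20% of all windows. The matches lie close together after the annotated start, and the stretches that hold them are shown with the motif bases in capitals.
GATA and hypoxia response, both on the minus strand: TTATCTctggctgCACGT
AP-1 variant: ggTGACTAAtc
The stretch with both motifs is chr13:42301484-42301501 and the other is chr13:42301510-42301520, in exon 1. Of the other endothelin genes, *Ece1* and *Ece2* had windows with ACGTG and none had AGATAA or TGACTAA. These are matches of letters, and no binding was measured.

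The genes nearest to each endothelin gene, by Euclidean distance of log2(FPKM + 1) over the 3 libraries, are given as a description. *Tmem256*, *Qsox1* and *Hba-a1* were nearest to *Ednrb*, at distances of 0.236, 0.259 and 0.285. *Mir703*, *Anp32b* and *Sfr1* were nearest to *Edn1*, at 0.284, 0.359 and 0.370, and *Mir703* is among the short noncoding genes. *Sh3bgrl3*, *Prx* and *Cox6c* were nearest to *Ece1*, at 0.0427, 0.0990 and 0.128, and *Prx* is also among the aerocyte markers. *Cep135*, *Tmem38a* and *Ces2b* were nearest to *Ednra*, and *Rbm41*, *Ankrd13b* and *Suv420h2* to *Ece2*, all at 0.0900 or less.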

How the data were processed

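The 3 libraries were made from poly-A selected RNA without strand information and sequenced as paired reads of 51 bp. The table the authors deposited holds 1 FPKM value per gene symbol and library, on mm10. Their processing notes name Trimmomatic 0.36, TopHat2 2.1.0 and Cufflinks 2.2.1 without roles, the paper's methods describe STAR, HTseq counts and batch correction with edgeR as the standard pipeline, and the gene annotation is not given in the sources used here. FPKM values are not counts, so no count model was fitted. Levels were used as deposited. Differences used log2(FPKM + 1), a pseudocount of 1, which understates changes of low genes. Pairs of genes were compared within libraries by exact sign flip permutation tests, two-sided, with Benjamini-Hochberg adjustment. A gene was called detected at 1 FPKM. Depth was estimated from the steps of low FPKM values. The method was tested only on simulated whole counts, scaled by the same length formula that it assumes. Such a test cannot show whether the deposited values follow that formula. The low values were taken from 7077 genes with a single GENCODE M21 basic transcript of 800 to 4000 bp. Low values numbered 351 in S38, 455 in S44 and 209 in S52. Between 75.6% and 78.3% of the low values came within 0.15 of whole fragments, at the depth fitted to those same values. Positions are those of GENCODE M21 (GRCm38), and promoter windows are from RefSeq (GRCm38.p6). Overlap with antisense genes, which unstranded reads cannot separate, was 35 bases for *Edn1* and 91 bases for *Ednra*. Python 3.11.15, numpy 2.4.6 and pandas 2.3.3 were used. Named genes were the 7 endothelin genes, the pathway and marker lists and the 3 nearest genes to each endothelin gene with a mean of at least 1 FPKM. The genes and lists were chosen with earlier results of these data known.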

Additional observations from a re-analysis of the deposited data

How the results depend on the processing

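The 3 libraries limit every comparison, since no exact test over them gives a p below 0.25, and FPKM levels depend on the scaling. Rescaling each library to a sum of 1000000 shifted the median of all genes at 1 FPKM or above by -0.45 on the log2 scale. It put *Edn1* at 53.4, *Edn3* at 0.553, *Ednra* at 3.5, *Ednrb* at 91.3, *Ece1* at 165 and *Ece2* at 3.44. Ratios between the highest and lowest library were then 2.58 for *Edn1*, 2.02 for *Edn3*, 1.92 for *Ednra*, 2.33 for *Ednrb* and 1.59 for *Ece1*. Leaving out short noncoding genes from that sum shifted the median by 1.08 and put *Edn1* at 152, *Edn3* at 1.58, *Ednra* at 10.0, *Ednrb* at 264, *Ece1* at 478 and *Ece2* at 10.1. Scaling to the endothelial genes moved no level by more than its SD. The lowest library stayed the same under these scalings, except that *Ece2* was lowest in S44 when rescaled to the sum of 1000000. The highest library turned to S38 for *Ednra* under that scaling and the endothelial scaling, for *Edn3* and *Ednrb* under that scaling, and for *Ece1* under all 3. When rescaled to the sum of 1000000, 6 of 7 aerocyte genes were lowest in S52, against 40.5% of all genes with a deposited mean of at least 1 FPKM. In that setting 55.5% of those genes were lowest in S44. All 10 mural genes were lowest in S44 under each scaling and without S52, where 54.9% of those genes were lowest in S44. These settings were chosen after seeing the data. In place of 5 endothelin genes, 3 were detected at a threshold of 10 FPKM and 6, with *Edn3*, at 0.1 FPKM or when rescaled without short noncoding genes. Leaving out each library in turn gave ratios between the highest and lowest library of 1.28 to 2.28 for *Edn1*, 1.13 to 1.65 for *Edn3* and 1.04 to 1.43 for *Ednra*, lowest without S44, and of 1.09 to 2.06 for *Ednrb* and 1.02 to 1.31 for *Ece1*, lowest without S52. The ratio of *Ece2* was 1.47 as deposited, 1.39 when rescaled to the sum of 1000000 and 1.19 to 1.47 with a library left out. *Ece2* minus *Ednra* ranged from -0.11 without S44 and -0.03 without S52 to 0.18 without S38. The other differences between pairs kept their direction under the pseudocounts of 0.1 and 0.01, the rescaling and each library left out. The share of all genes at 1 FPKM in every library rose to 70.6% when genes whose mean was under 0.1 FPKM were left out, and 34.5% of those differed over 2-fold between libraries.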
